A study of Drosophila melanogaster with 4 samples.

Results

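The genes described here are 5 second copies of translation machinery genes of Drosophila melanogaster, measured in ovary RNA of snf148 mutant and wild-type females. They are the ribosomal protein genes RpL37b, RpS19b, RpL22-like and RpS10a and the cap-binding factor gene eIF4E-3, taken by name from 1283 genes that the authors listed as different between the genotypes. All 5 names were found, and all 5 were among the 665 genes higher in snf148. They were chosen by these same mean levels, high in snf148 and low in wild type, so their levels and ratios are a description, and nothing is supported with them.

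Mutant females had the genotype y w snf[148] v and were 3-day adults. Control females, labelled wild type, had the genotype y w and were virgins of 0 to 24 hours. Both groups thus carried y and w, whereas v accompanied the snf allele in the mutant group alone, and mating status is given for the controls alone. Each genotype had 2 libraries, and only the authors' mean per genotype was analysed, so no SD or n stands beside a value and the depth is unknown. Genotype, age and v cannot be told apart in any ratio given here, and whether mating status differed with them is not known.

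A ribosome is built from a small and a large subunit, whose proteins are named RpS and RpL, and most of these proteins are encoded by genes active in every cell. Some fly ribosomal protein genes have a second copy that is expressed mainly in germ cells, in the testis, the ovary or both. Translation of most messages begins when the protein eIF4E binds the cap at the 5′ end of the mRNA and, through the scaffold eIF4G, brings it to the small subunit. Flies have several eIF4E genes, of which eIF-4E (now eIF4E1) is the general one. The product of snf (sans fille) is a spliceosome protein, and female germ cells need it to splice Sex-lethal (Sxl) RNA in the female way.

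Values are mean FPKM, that is fragments per kilobase of transcript and per 1000000 mapped fragments, so levels of different genes can be set side by side per length. Among the small-subunit genes, RpS19b, known from early female germ cells as well as from testis, stood at 204 FPKM in snf148 and 9.24 FPKM in wild type. It was the highest of the 5 genes in both genotypes, and the gap of 195 FPKM between its means was the widest of the 5. Its ratio of 22.1, snf148 over wild type, was nonetheless only the fourth of the 5. RpS10a, the second copy of the RpS10 gene, stood at 73.9 FPKM in snf148 and 6.93 FPKM in wild type. Its 10.7-fold ratio was the smallest of the 5. Together these small-subunit genes made up most of the summed wild-type level of the 5 genes, RpS19b 50.2% of it and RpS10a 37.6%.

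Among the large-subunit genes, RpL37b stood at 85.1 FPKM in snf148 and 0.661 FPKM in wild type, a ratio of 129. RpL22-like, a copy of RpL22 known from the testis germline, stood at 53.2 FPKM in snf148 and 1.15 FPKM in wild type, a ratio of 46.1. In wild type both lay well under the small-subunit genes, at 3.59% and 6.26% of the summed level of the 5 genes. In snf148 RpL37b had moved above RpS10a to the second place and held 18.4% of the sum.

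The initiation factor gene eIF4E-3, known to be needed in fly spermatocytes for meiosis, stood at 45.6 FPKM in snf148 and 0.443 FPKM in wild type. It was the lowest of the 5 genes in both genotypes, and its ratio of 103 was second to that of RpL37b. The mean levels thus ran RpS19b, RpS10a, RpL22-like, RpL37b and eIF4E-3 in wild type, and RpS19b, RpL37b, RpS10a, RpL22-like and eIF4E-3 in snf148, with no spread to say which neighbours in these orders differ. Summed over the 5 genes, the level was 462 FPKM in snf148 and 18.4 FPKM in wild type. In bulk RNA, more cells that express such a gene and more of its RNA per cell cannot be told apart.

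**Figure D1:**
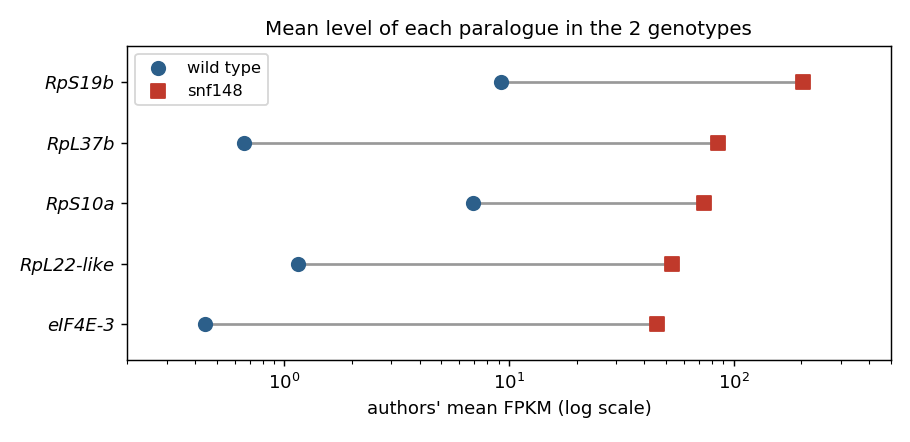
Authors' mean FPKM of the 5 genes on a log axis, with wild type as circles and snf148 as squares, joined by a line for each gene. The snf148 means lie between 45.6 and 204 FPKM, whereas the wild-type means spread from 0.443 to 9.24 FPKM.

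The mean levels of the 5 genes thus spanned a narrower fold range in snf148 than in wild type. RpS19b exceeded eIF4E-3 by 4.47-fold in snf148 and by 20.8-fold in wild type. The wild-type figure rests on the low eIF4E-3 mean of 0.443 FPKM. As the genes were chosen by these means, the contrast is a description only. The order of the ratios followed the wild-type level only in part. The genes under 1 FPKM in wild type, RpL37b and eIF4E-3, had the largest ratios, and those above 5 FPKM, RpS19b and RpS10a, the smallest, a relation that a ratio shares with its own denominator.

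At any given depth, low wild-type means rest on fewer fragments. Multiplied by the transcript length in the reference annotation (release 6 of the genome), the RpL37b means correspond to about 0.279 fragments per 1000000 mapped fragments in wild type and 35.9 in snf148. For eIF4E-3 the figures were 0.461 and 47.4, and for RpL22-like 1.42 and 65.5. RpS10a and RpS19b had 4.18 and 6.15 such fragments in wild type and 44.7 and 136 in snf148. The length by which the authors' FPKM were divided is not given in the sources used here and may differ from the full transcript length. All these figures are therefore approximate. The wild-type level of RpL37b and eIF4E-3, and with it the exact size of their ratios, thus rests on the fewest fragments of the 5, whereas their snf148 levels rest on many more.

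The authors' deposited table gives RpS19b, RpL22-like and eIF4E-3 an adjusted P value of 0.00126, the smallest in it and shared by 466 genes. In the authors' deposited table RpL37b has an adjusted P value of 0.00391 and RpS10a one of 0.0123. The adjusted P values correspond to 11777 tests, of which 5.65% were listed as higher in snf148 and 5.25% as lower. At least 10-fold higher were 1.63% of the tests, and all 5 genes were among them, which follows from how they were chosen.

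The paralogues were also placed among all higher genes. The median higher gene stood at 14.1 FPKM in snf148 and 2.03 FPKM in wild type. Of the 626 higher genes above 0 in both genotypes, RpL37b came at place 3 by ratio, eIF4E-3 at 5 and RpL22-like at 18, whereas RpS19b came at 71 and RpS10a at 145. By mean level in snf148, among all 665 higher genes, RpS19b came at place 37, RpL37b at 95, RpS10a at 107, RpL22-like at 149 and eIF4E-3 at 177. Of the 445 higher genes under 10 FPKM in wild type, 19 reached at least 40 FPKM in snf148, limits chosen after the values were seen. All 5 paralogues were among those 19, with RpS19b and RpL37b at the top of them.

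**Figure D2:**
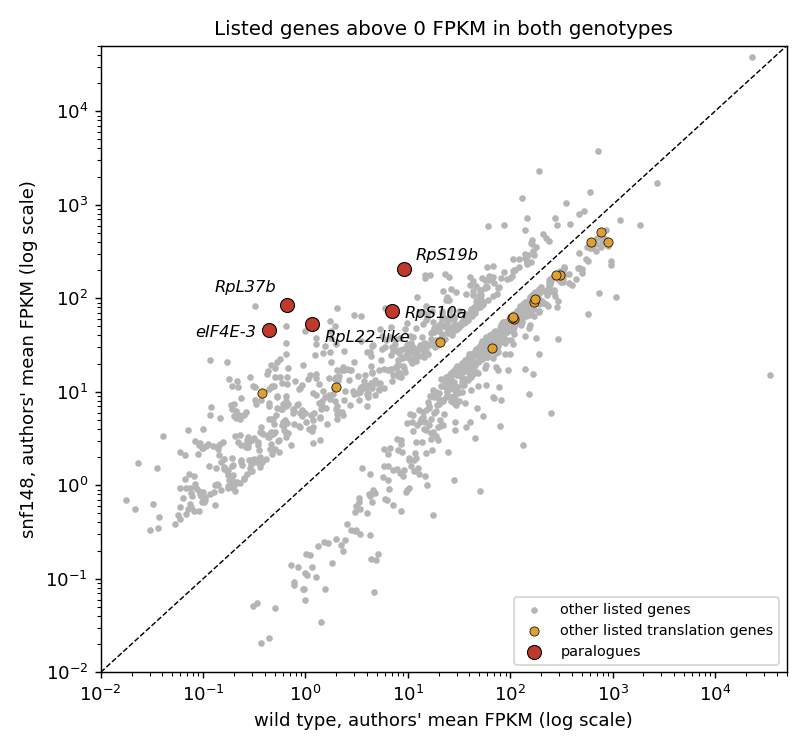
Authors' mean FPKM in snf148 against wild type, both on log axes, for each listed gene above 0 in both genotypes; the dashed line marks equal levels. The 5 paralogues lie along the upper edge of the cloud of higher genes, from eIF4E-3 at 0.443 and 45.6 FPKM to RpS19b at 9.24 and 204 FPKM, and most other listed translation genes lie below the line.

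Each paralogue has a family partner that is taken as the general copy: RpL37a for RpL37b, RpS19a for RpS19b, RpL22 for RpL22-like, RpS10b for RpS10a and eIF-4E for eIF4E-3. None of these 5 partners is among the listed genes, so their levels were not analysed here and no ratio of paralogue to partner can be given. Of 66 cytosolic ribosomal protein genes outside the paralogue pairs 1 was listed (1.52%, beside 5.25% of all tests listed as lower), RpL23A of the large subunit. It was lower in snf148 at 400 FPKM against 901 FPKM in wild type. Beside it, RpS19b had 51.0% of the RpL23A level in snf148 and 1.03% of it in wild type. As RpL23A was itself 2.25-fold lower in snf148, it does not stand for the general ribosomal protein genes, whose levels were not analysed. How reads that match both a paralogue and its partner were assigned is not given in the sources used here, so the level of a paralogue may contain reads of its partner, or lack its own. The size of this exchange was not tested.

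The other genes of translation were looked up in 7 lists, which held 229 genes in all and were drawn up with earlier results of these data known. Of these, 8 were higher (3.49%) and 11 lower (4.80%), shares near or under those of all tests. How many of the 229 genes were tested is not known. Untested genes would lower the shares, so no conclusion on translation genes as a class is drawn. The 8 higher ones were the 5 paralogues, eIF4G2, CG8335 and Ef1alpha100E. All but eIF4G2 were at least 4-fold higher, which makes 3.06% of the 229 genes, beside 3.29% of all tests. The median log2 ratio of the listed members of the paralogue-pair list was 4.46, beside 0.69 over all 1283 listed genes, higher and lower together. As 4 of its 5 listed members are genes described here, this contrast follows from how they were chosen.

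The 3 higher genes beside the paralogues are themselves further copies of a general factor. CG8335, named eIF3f2 in the reference annotation, encodes a second version of a subunit of eIF3, the complex that binds the small subunit during initiation. It stood at 9.73 FPKM in snf148 and 0.378 FPKM in wild type, a ratio of 25.8 between those of RpL22-like and RpS19b. Ef1alpha100E, a second gene for the elongation factor that carries aminoacyl-tRNA to the ribosome, stood at 11.2 FPKM in snf148 and 1.97 FPKM in wild type. The scaffold gene eIF4G2, known to act with eIF4E-3 in spermatocytes, stood at 33.8 FPKM in snf148 and 20.4 FPKM in wild type, a ratio of 1.66. The level of eIF4E-3 was thus 2.17% of that of eIF4G2 in wild type and 1.35 times that of eIF4G2 in snf148. That each of these genes is a further copy was noticed after their values were seen.

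The 11 lower genes were 1.53-fold to 2.27-fold lower in snf148, none of them by 4-fold, and stood between 65.9 and 901 FPKM in wild type. All 8 higher genes were at or below 20.4 FPKM in wild type. Besides RpL23A the lower genes were RpLP0-like, eIF6, eIF-2gamma, eIF3-S10, exba, eEF1delta and 4 mitochondrial ribosomal protein genes, mRpS28, mRpL20, mRpS10 and mRpS30. RpLP0-like, which stood at 91.5 against 171 FPKM, bears a paralogue's name too, but is related to a ribosome assembly factor. Of the 27 paralogue-pair genes 22 were not listed and RpLP0-like alone was lower, beside 5.25% lower over all tests. The factor eIF6, which acts on the large subunit during its assembly, stood at 98.3 FPKM in snf148 and 177 FPKM in wild type.

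**Figure D3:**
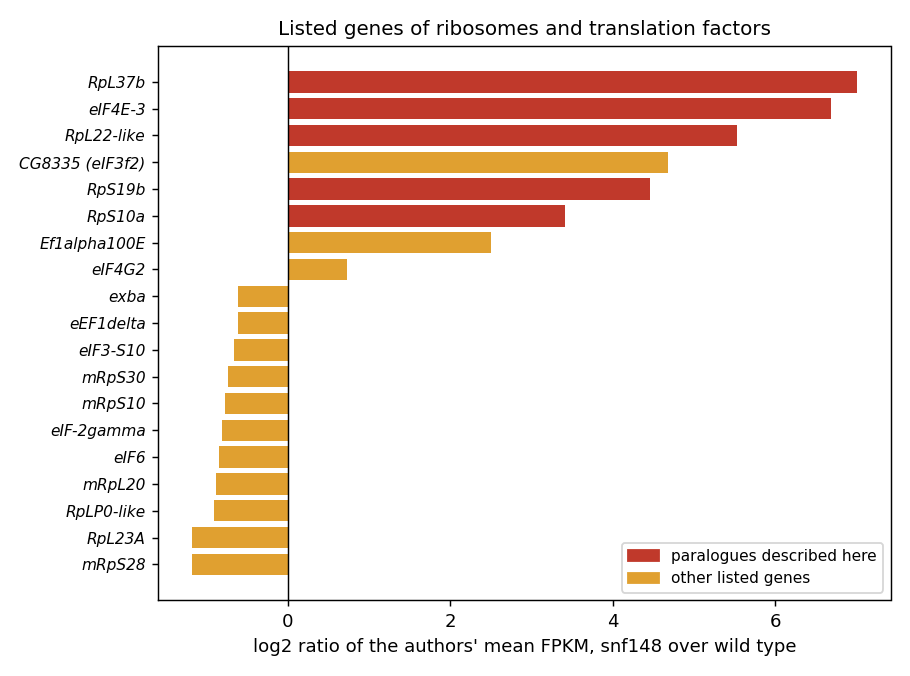
Log2 ratio of the authors' mean FPKM, snf148 over wild type, for the 19 listed genes of the translation lists; bars to the right are higher in snf148. The 5 paralogues and CG8335 have log2 ratios from 3.42 to 7.01, whereas no lower gene passes -1.18.

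Gene structure, which played no part in choosing the 5 genes, differs among them. In the reference annotation RpL37b and RpS10a are single-exon genes with transcripts of 422 and 604 nt, RpL22-like has 1 intron, RpS19b has 2 and eIF4E-3 has 5. Their partners RpL37a, RpS10b, RpL22 and RpS19a have 2 introns each and eIF-4E has 5. All 4 ribosomal partners lie on X, whereas the 4 ribosomal paralogues are autosomal, RpL37b and RpL22-like on 2R and RpS19b and RpS10a on 3R. Both eIF4E-3 and eIF-4E are on 3L. The encoded proteins are close in length, 89 residues for RpL37b and 93 for its partner, 155 and 156 for the RpS19 pair, 312 and 299 for the RpL22 pair, 163 and 160 for the RpS10 pair, and 244 and 259 for the eIF4E pair.

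**Figure D4:**
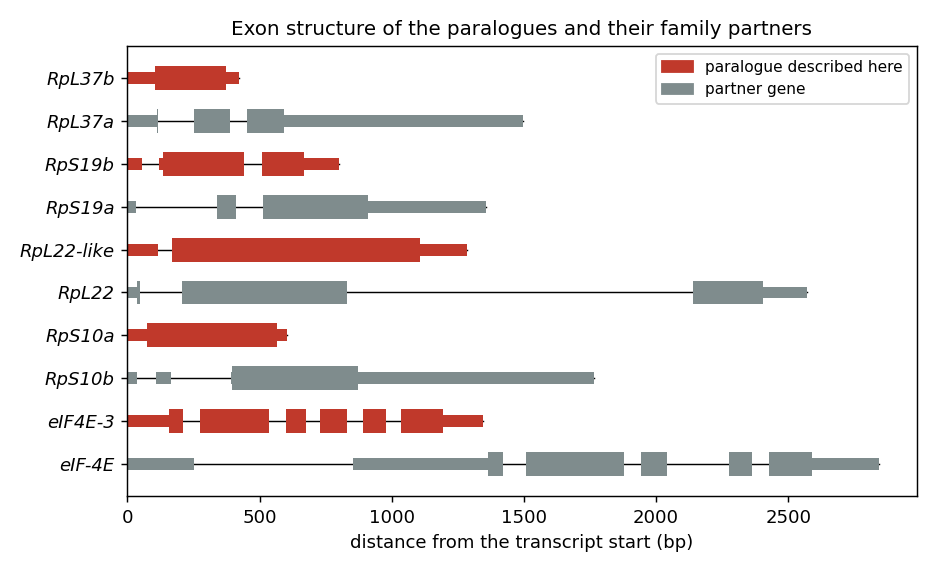
Exon structure of each paralogue and, under it, its partner, drawn to scale from the transcript start in base pairs, with coding parts thick, untranslated parts thin and introns as lines. RpL37b and RpS10a consist of 1 exon, and eIF4E-3 has 6 exons like eIF-4E.

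The loci of the authors' tables, in a build that is not named, are 18987580 to 18987982 on 2R for RpL37b and 19134133 to 19135410 on 2R for RpL22-like. The RpS19b locus runs from 19758451 to 19759252 on 3R. That of eIF4E-3 runs from 8222324 to 8223668 on 3L. For RpS10a the tables give 23465610 to 23482718 on 3R, a span of 17109 bp for a gene of 604 bp in the reference annotation. There, RpS10a lies within tau, a gene of 17111 bp on the opposite strand, and overlaps none of its exons. The libraries were stranded, but whether counting used the strand is not given in the sources used here, so reads from tau introns cannot be told apart from those of RpS10a. The gene tau is not among the listed genes.

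None of the nearest protein-coding neighbours of the paralogues was listed, apart from CG12782, 16375 bp from RpL22-like. In the tables' loci, the only listed gene within 10 kb of a paralogue was CG5612, 3659 bp from the span given for RpS10a, but 26748 bp from RpS10a itself in the reference. It stood at 124 FPKM in snf148 and 26.3 FPKM in wild type. RpS19b lies between CG13599, which abuts it on the opposite strand, and CG5854 at 381 bp, and neither was listed. The paralogues thus differed between genotypes without a listed neighbour close by, but an unlisted gene may still differ.

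The listed genes nearest to each paralogue in both mean levels, by distance on log2 axes over 1237 other genes above 0 in both genotypes, were mostly uncharacterised. CG42704 was nearest both to RpL37b, at a distance of 0.77, and to eIF4E-3, at 0.55. It stood at 50.0 FPKM in snf148 and 0.640 FPKM in wild type. The second nearest were CG34434 for RpL37b, at 1.06, and Taf12L, a testis form of a TFIID subunit gene, for eIF4E-3, at 0.72. For RpL22-like they were Send1, a serine protease gene of the spermatheca, at 0.34, and CG31676 at 0.51. CG15930 and CG14932 were nearest to RpS10a, at 0.23 and 0.58, and CG18628 and CG13299 to RpS19b, at 0.70 and 0.73. With a pair of means per gene, such likeness is that of 2 numbers.

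Copies of other housekeeping genes that are known from testis were looked up as well. Of 28 on the list, 5 were listed, all higher (17.9%, beside 5.65% of all tests), with ratios from 10.4 to 51.0. This list was drawn up with earlier results of these data known, so nothing is concluded from its share. Taf12L stood at 32.9 FPKM in snf148 and 0.646 FPKM in wild type, and the thioredoxin gene TrxT at 22.5 and 0.567 FPKM. The proteasome ATPase genes Rpt6R and Rpt4R stood at 2.86 and 2.50 FPKM in snf148, and can, a testis gene for a TFIID-type subunit, at 0.635 FPKM. In snf148 each of the 5 ribosomal and eIF4E paralogues stood above the highest of these, but they were chosen for high levels in snf148.

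Some markers of other cell types were listed as higher like the paralogues, some as lower, and most were not listed; their part in these ratios was not tested. The shares of all tests, 5.65% higher and 5.25% lower, stand beside each of the following counts. The marker lists too were drawn up with earlier results of these data known. Of 19 spermatocyte transcription markers 6 were listed, all higher, with a summed level of 57.6 FPKM in snf148 and 1.60 FPKM in wild type. Of these 6, Taf12L and can also belong to the testis copies above, and the others summed to 24.0 and 0.918 FPKM. Of 19 spermatid markers, ocn was higher at 11.5 against 0.467 FPKM and Dhod, an enzyme gene of pyrimidine synthesis that is no spermatid marker, was lower at 52.8 against 102 FPKM. Of 19 genes on the list of early female germline markers 5 were higher and 2 lower. Together the 7 summed to 371 FPKM in snf148 and 377 FPKM in wild type, although single genes moved in opposite directions. The gene blanks, on this list but known as a testis gene, stood at 56.7 FPKM in snf148 and 1.75 FPKM in wild type. In the same order cona stood at 61.3 and 22.5 FPKM, Sxl at 66.6 and 110 FPKM, and zpg at 109 and 228 FPKM. The ratios of the 5 higher genes ran from 2.66 to 32.3, the largest being that of blanks. Next came ord, at 26.5 against 1.72 FPKM, and bgcn, at 21.1 against 1.78 FPKM. Their ratios of 15.4 and 11.8 lay between those of RpS10a and RpS19b. The follicle cell genes Fas3 and cas, 2 of 4 on their list, were higher, with a sum of 176 against 56.9 FPKM. The muscle gene Act79B, 1 of 3, was lower at 1.02 against 15.4 FPKM, and of the fat body genes Rfabg was higher and Lsp1gamma lower, with sums of 98.9 and 166 FPKM. No listed marker was at 0 in either genotype.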

How the data were processed

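Ovary RNA of 2 genotypes was sequenced as stranded total RNA, paired-end, per the labels' protocols. TopHat2 2.0.9 and Cuffdiff, without a version, are named in the submitters' processing notes; which genome build, gene models and strand setting were used is not given in the sources used here. Per the file headers, the deposited tables hold the authors' mean FPKM per genotype, their log2 fold change with wild type in the numerator, and their P values, raw and adjusted. Genes outside the tables were not analysed here, and without per-library values no test of differential expression could be run.

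Folds and log2 ratios were recomputed as snf148 over wild type from the deposited mean FPKM, without a pseudocount. The number of tests, 11777, is the whole number for which P times that number over adjusted P was whole, within 0.02, for all 108 P values; it implies 1292 calls, against 1283 rows at hand. This step was tested on simulated data. Table starts were moved to count from 1. Gene structure and neighbours came from Ensembl release 115, on genome release 6, whose coordinates are not printed. Python 3.11.15 was used.

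The 5 genes and the gene lists were chosen with earlier results of these data known. Named genes were the 5 paralogues, their partners, every listed gene of the translation and testis-paralogue lists and up to 4 per marker list by FPKM. The 2 nearest genes in level and listed genes within 10 kb were named too, and ord and bgcn were added for their ratios. The alternatives were pseudocounts of 0.1 and 1 FPKM, the authors' log2 value, a limit of 0.01 on adjusted P values, a 4-fold limit and a 1 FPKM limit. Protein and promoter sequences were not used here.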

Additional observations from a re-analysis of the deposited data

How the results depend on the processing

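All 5 log2 ratios stayed positive under the pseudocounts of 0.1 and 1 FPKM and with the authors' deposited log2 value. A pseudocount of 1 FPKM lowered the log2 ratio to 5.70 for RpL37b, 5.01 for eIF4E-3 and 4.65 for RpL22-like. For each of these the fold, not the log2 ratio, changed by over 1.5 times, which follows from adding to a low wild-type mean. RpS19b and RpS10a moved by less. With that pseudocount the place by ratio among higher genes rose to 3 for eIF4E-3, 6 for RpL22-like, 11 for RpS19b and 48 for RpS10a, since ratios of weakly expressed genes shrink most. Of the 84 list counts under the alternatives, 66 stayed within 1.5 times and 18 moved, all downwards, because fewer genes pass a stricter limit. With adjusted P values limited to 0.01, 6 of the 8 higher translation genes remained, without RpS10a (0.0123 in the authors' deposited table) and eIF4G2, and 2 of the 11 lower ones, RpL23A and eIF-2gamma, so that all 4 mitochondrial genes were lost. At 4-fold, 7 of the 8 higher translation genes and none of the 11 lower ones remained. No paired analysis was possible because the tables hold only genotype means, and leaving out a replicate was not run for the same reason. The planned protein alignments and promoter motif counts were not run, since no sequences were used here.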

Other observations

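The single-exon genes RpL37b and RpS10a, whose transcripts are the shortest of the 5, also have the largest adjusted P values of the 5 in the authors' deposited table, 0.00391 and 0.0123, although RpL37b has the largest ratio. The longer of these transcripts, that of RpS10a, has the larger value, and the other 3 genes share 1 adjusted P value across transcripts of 666 to 1232 nt.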
